A study of Mus musculus with 8 samples.

Results

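A set of 9 miRNAs that are typical of liver, gut epithelium or pancreas was looked up in small RNA libraries of isolated mouse cardiomyocytes. They were chosen by name (mmu-miR-122-5p, mmu-miR-192-5p, mmu-miR-194-5p, mmu-miR-215-5p, mmu-miR-216a-5p, mmu-miR-216b-5p, mmu-miR-217-5p, mmu-miR-375-3p and mmu-miR-802-5p, below without the species prefix), with earlier results of these data known. Of these 9 names, 8 were among the 697 mature miRNAs of the count tables and 1, miR-802-5p, was absent from them and was skipped. The libraries came from male mice that were operated at the age of 2 months, 4 by transverse aortic constriction (TAC), in which the aortic arch is narrowed so that the left ventricle pumps against a raised pressure, and 4 by a sham operation without the constriction. Each library was made from a portion of the myocytes of 1 heart, isolated with a Langendorff perfusion system. The methods give 14 weeks both as the time after surgery and as the age of the mice, and no genotype or strain is named. The miRNA totals lay between 4005668 and 7798943 counts per library, and no library was a copy of another. The labels do not say how the libraries were spread over days of isolation, and the p-values below measure the spread between these libraries. The labelled cell type was checked with 5 cardiomyocyte miRNAs (miR-1a-3p, miR-133a-3p, miR-208a-3p, miR-208b-3p and miR-499-5p), all of which were found. Their summed level was 160712 to 198133 counts per 1000000 miRNA counts (CPM) in sham and 194455 to 245941 CPM in TAC. Most of this sum was miR-1a-3p, with means of 108665 CPM in sham and 158119 CPM in TAC, and miR-133a-3p, with 67356 and 62669 CPM. The means of miR-208a-3p, miR-208b-3p and miR-499-5p were 519, 41.3 and 719 CPM in sham and 427, 72.6 and 733 CPM in TAC. The endothelial miR-126a-3p and miR-126a-5p together made up 49248 to 72051 CPM in sham and 29274 to 34557 CPM in TAC. In such bulk libraries, fewer cells of a type and less RNA per cell cannot be told apart.

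A mature miRNA is cut from a hairpin, is loaded into an Argonaute protein and pairs with target mRNAs mainly through its seed, bases 2 to 8 from the 5′ end. miR-122 is the leading miRNA of hepatocytes, where it acts on cholesterol metabolism. miR-192, miR-194 and miR-215 are expressed in the epithelia of gut, liver and kidney under the control of HNF1 factors. miR-216a, miR-216b and miR-217 come from one locus and are typical of the acinar cells of the exocrine pancreas. miR-375 is typical of islet cells and other endocrine cells, where it restrains insulin secretion, and miR-802 is expressed in liver and pancreas. miR-122 and miR-375 also circulate in plasma and are used there as markers of tissue injury.

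The mature sequences are shown because the names fall into groups that share a seed or a locus, and because nearly identical sequences limit what a count on one name means. Mature sequences of 6 of the 8 miRNAs found were taken from RefSeq (GRCm38.p6). They have 21 to 23 bases and are written 5′ to 3′ with the seed in capitals. miR-122-5p and miR-375-3p are named only. The lookup did not cover every chromosome, so their lack here does not mean that RefSeq holds no sequence for them.
miR-192-5p: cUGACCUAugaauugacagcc
miR-215-5p: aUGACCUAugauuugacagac
miR-194-5p: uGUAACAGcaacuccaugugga
miR-216a-5p: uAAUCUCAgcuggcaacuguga
miR-216b-5p: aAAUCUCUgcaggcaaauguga
miR-217-5p: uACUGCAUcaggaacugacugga
miR-192-5p and miR-215-5p carry the same seed and differ at 3 of 21 bases, C1A, A12U and C20A, with positions counted from the 5′ end and the base of miR-192-5p first. miR-216a-5p and miR-216b-5p differ at 4 of 22 bases, U1A, A8U, U11A and C17A with the base of miR-216a-5p first, and 1 of these lies in the seed. How tags that matched several miRNAs were assigned is not given in the sources used here, and counts of these pairs could have been split between them.

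The hairpins of the miRNAs with a sequence above lie in 3 clusters, all on the plus strand of GRCm38. Those of miR-122 and miR-375 were not placed. Mir192 (chr19:6264844-6264932) and Mir194-2 (chr19:6264643-6264728) are 115 bases apart. Mir194-1 (chr1:185313319-185313385) and Mir215 (chr1:185313581-185313692) are 195 bases apart inside the antisense gene 2010103J01Rik, where Mir215 overlaps an exon and Mir194-1 does not, and opposite an intron of Iars2. The same mature miR-194-5p is cut from both of its hairpins. Mir216b (chr11:28746191-28746276), Mir216a (chr11:28757012-28757083) and Mir217 (chr11:28763728-28763835) lie 10735 and 6644 bases apart. Mir216a and Mir217 are inside the lincRNA gene Gm12082 but outside its exons.

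The 8 miRNAs made up 0.126% to 0.186% of the miRNA counts of a library, and miR-192-5p alone held 75.7% to 82.0% of their counts. Their median levels over the 8 libraries fell in the order miR-192-5p, miR-194-5p, miR-215-5p, miR-216a-5p, miR-122-5p, miR-375-3p, miR-216b-5p and miR-217-5p. The range over libraries of miR-192-5p did not overlap that of miR-194-5p, nor did that of miR-194-5p overlap that of miR-215-5p. miR-215-5p and miR-216a-5p overlapped through 1 TAC library, while miR-216a-5p stayed above miR-122-5p in all libraries. The ranges of miR-122-5p, miR-375-3p and miR-216b-5p overlapped, and their order was not the same in every library. miR-216b-5p was above the other members of this group only in TAC replicate 4, with 69 counts against 57 for miR-122-5p and 32 for miR-375-3p. Differences between these neighbours were not tested. The ranges of miR-216b-5p and miR-217-5p overlapped too, but miR-216b-5p was above miR-217-5p in each of the 8 libraries. All are mature miRNAs of similar length, but adapter ligation favours some ends over others, so that the order is one of counted tags. Of the 8, 4 had a mean above 100 counts per library, and 7 passed the mean of 10 counts required for a test. Intervals below are exact 95% Poisson intervals and, like the limits for 0 counts, cover counting error only.

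**Figure D1:**
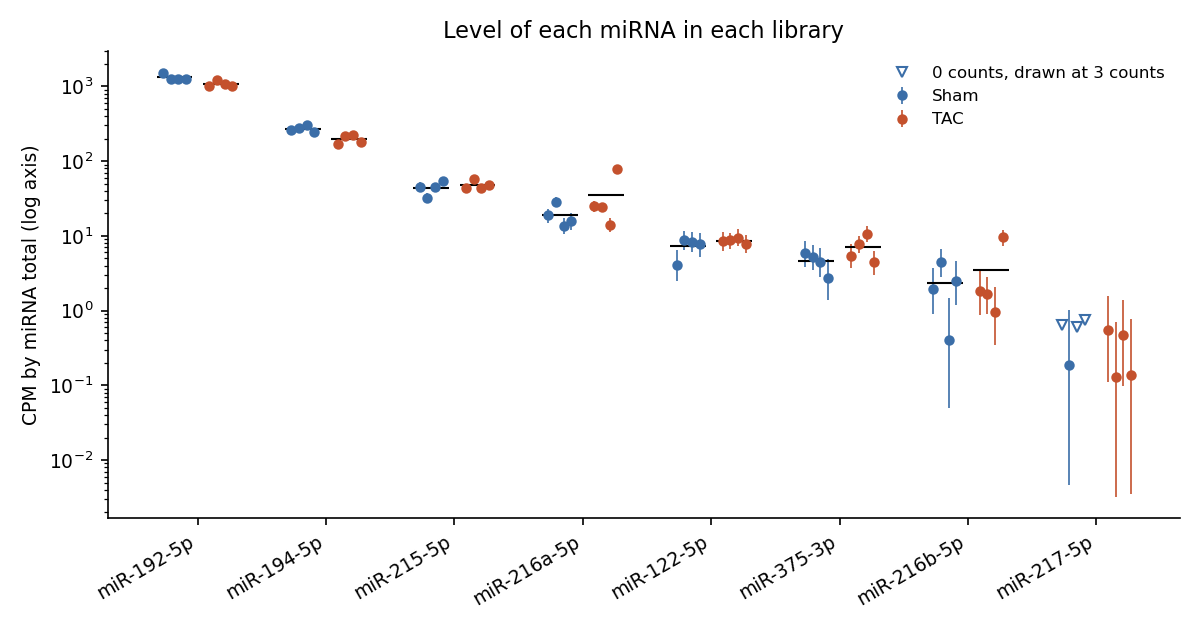
Level of each of the 8 miRNAs in the 4 sham and 4 TAC libraries, in CPM on a log axis. Points are libraries with exact 95% Poisson intervals, black lines are group means, and open triangles mark libraries with 0 counts, drawn at the level of 3 counts. miR-192-5p stands between 998 and 1524 CPM, and miR-217-5p stays below 1 CPM in all 8.

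miR-192-5p was no trace miRNA in these libraries, and which cells it came from was not tested. It was counted 7054, 6868, 6169 and 5064 times in the sham libraries and 5498, 9646, 6763 and 7424 times in the TAC libraries, and ranked between 50 and 58 among the 697 miRNAs. Its level was 1524, 1274, 1257 and 1264 CPM in sham and 998, 1237, 1067 and 1028 CPM in TAC. All TAC libraries were below all sham libraries on this scale, with 1 sham library standing higher than the other 3. miR-194-5p, cut from hairpins beside those of miR-192 and miR-215, was at 258, 276, 300.4 and 243 CPM in sham and at 172, 215.03, 222 and 181 CPM in TAC. Here too the TAC libraries lay below the sham libraries without overlap. miR-215-5p was at 45.6, 31.9, 44.6 and 53.4 CPM in sham and at 44.1, 58.1, 44.0 and 47.9 CPM in TAC, and the groups overlapped. The ratio of miR-192-5p to miR-194-5p was 4.19 to 5.91, a 1.41-fold range, and that of miR-192-5p to miR-215-5p was 21.3 to 39.9, a 1.88-fold range. The profile over the 8 libraries nearest to that of miR-194-5p was miR-27a-3p, with a root mean square difference of 0.0737 on the log2(CPM + 1) scale against a median of 0.377 over 403 candidates, and the nearest to miR-192-5p was miR-181b-5p, with 0.121 against 0.374. For miR-215-5p it was miR-3057-3p, with 0.155 against 0.472.

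The pancreatic miRNAs were uneven between libraries. miR-216a-5p was counted 87, 153, 67 and 63 times in sham, which is 18.8, 28.4, 13.7 and 15.7 CPM. In TAC it was counted 137, 188, 88 and 572 times, which is 24.9, 24.1, 13.9 and 79.2 CPM. TAC replicate 4 was 3.29 times the median of the other 3 TAC libraries, whereas TAC replicates 1 to 3 lay within the sham range. miR-216b-5p was counted 9, 24, 2 and 10 times in sham and 10, 13, 6 and 69 times in TAC. Its level of 9.55 CPM in TAC replicate 4 (interval 7.43 to 12.1) was 5.73 times the median of the other 3 TAC libraries, which lay between 0.946 and 1.82 CPM. Such an excess of at least 2 times in TAC replicate 4 was found for 40 of the 410 miRNAs tested (9.76%), among which miR-216b-5p ranked 5 and miR-216a-5p 17. None of miR-122-5p, miR-192-5p, miR-194-5p, miR-215-5p and miR-375-3p was among them, with ratios between 0.566 and 1.09.

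Most miRNAs of the epithelial list shared the excess in TAC replicate 4, but they were not alone in it. Of the other lists, 3 of the 8 blood miRNAs and 2 of the 4 found of the testis and embryonic stem cell list were at least 2 times the median there. In the cardiomyocyte, endothelial and brain lists 0 were. Of the 10 miRNAs of the epithelial list (the miR-200 family, miR-205-5p, miR-203-3p and the miR-183 cluster), all were found and 9 were at least 2 times the median of the other TAC libraries in TAC replicate 4, with ratios from 1.63 to 7.39. Their summed level was 1594 CPM in TAC replicate 4 and 283 to 497 CPM in the other 7 libraries. miR-200b-3p, which restrains the mesenchymal factors ZEB1 and ZEB2, was at 138 CPM in TAC replicate 4 and at 18.5 to 32.8 CPM elsewhere, and miR-205-5p, a miRNA of stratified epithelia, was at 390 CPM against 34.5 to 70.1 CPM. The ratio of miR-216a-5p to miR-200b-3p stayed between 0.511 and 0.900 in all 8 libraries, and that to miR-141-3p between 0.215 and 0.383. The ratio to miR-205-5p was 0.203 in TAC replicate 4 and 0.366 to 0.461 in the other 7 libraries. The profiles nearest to miR-216a-5p were those of miR-182-5p, miR-141-3p and miR-200a-3p, with root mean square differences of 0.247, 0.248 and 0.254 against a median of 0.879. For miR-216b-5p they were miR-96-5p, miR-363-3p and miR-182-5p. In the edgeR test described below, 7 of the 10 were called higher in TAC under the reference scaling, beside 29.8% of all miRNAs tested, and 0 under TMM, beside 1.95%. Whether RNA of epithelial or other cells had a part in these levels was not tested.

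**Figure D2:**
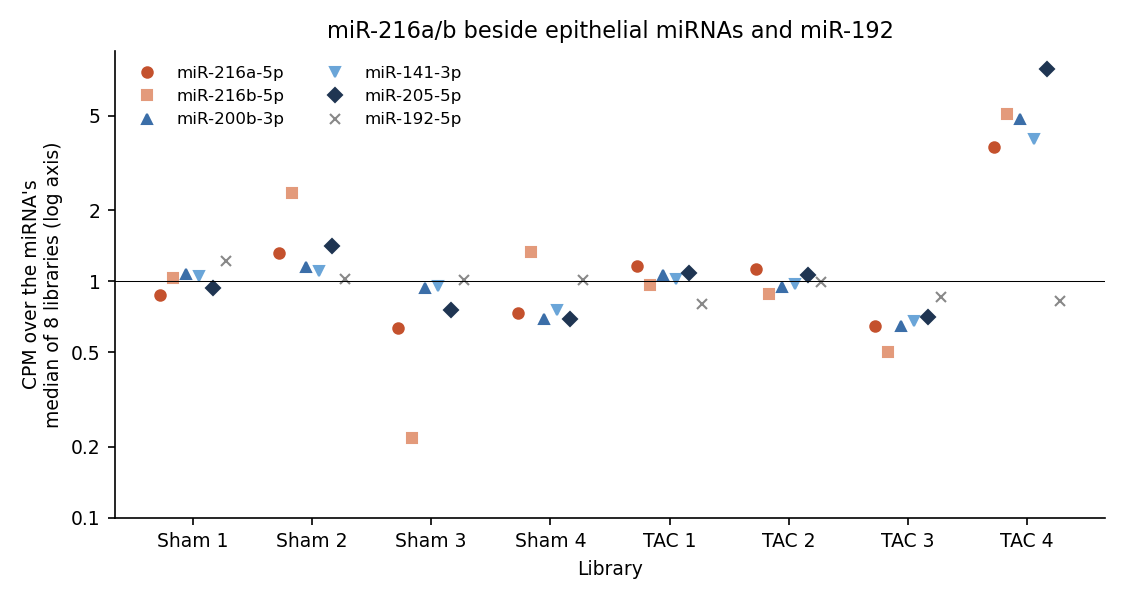
CPM of miR-216a-5p and miR-216b-5p in each library, divided by the miRNA's median over the 8 libraries (log axis), beside the epithelial miR-200b-3p, miR-141-3p and miR-205-5p and beside miR-192-5p. In TAC replicate 4 all plotted miRNAs but miR-192-5p stand well above 1.

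miR-217-5p, whose hairpin lies next to that of miR-216a, was nearly absent. It was counted 0, 1, 0 and 0 times in sham and 3, 1, 3 and 1 times in TAC. A count of 0 allows levels of up to 0.648, 0.611 and 0.749 CPM in sham replicates 1, 3 and 4. Over the 8 libraries the sums were 1355 counts for miR-216a-5p and 9 for miR-217-5p, a ratio of 151, and TAC replicate 4, with the highest miR-216a-5p, had 1 count of miR-217-5p. The other arms of the hairpins were at most at 5 counts in a library, with sums over the 8 libraries of 7 for miR-192-3p, 15 for miR-194-1-3p, 24 for miR-194-2-3p, 2 for miR-215-3p and 5 for miR-216a-3p.

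The hepatocyte miRNA miR-122-5p was low in all libraries and even in all but sham replicate 1. It was counted 19, 47, 41 and 31 times in sham and 47, 68, 60 and 57 times in TAC, which is 4.11, 8.72, 8.36 and 7.74 CPM in sham and 8.53, 8.72, 9.46 and 7.89 CPM in TAC. All libraries but sham replicate 1 lay between 7.74 and 9.46 CPM, sham replicate 1 was lower (interval 2.47 to 6.41), and the groups overlapped. The miRNA ranked between 255 and 318 in the libraries. From the lowest to the highest library miR-122-5p varied 2.31-fold. The 8 blood miRNAs looked up varied from 1.67-fold (miR-486a-5p) and 2.54-fold (miR-150-5p) to 44.3-fold (miR-144-3p). miR-451a, of red cells, was at 86.4, 257, 404 and 278 CPM in sham and at 16.5, 55.0, 162 and 145 CPM in TAC. The ratio of miR-122-5p to miR-451a ran from 0.0207 to 0.0475 in sham and from 0.0543 to 0.516 in TAC, a 25.0-fold range over all libraries. All 8 blood miRNAs were found, with a summed level of 24136 to 27425 CPM in sham and 27884 to 36712 CPM in TAC. Most of this sum was miR-486a-5p, at 21393 to 35654 CPM, which muscle expresses too. The leukocyte and platelet miR-223-3p was at 21.7 to 47.1 CPM in sham and 5.99 to 24.3 CPM in TAC. The part of plasma in its level was not tested. The nearest profiles were those of miR-342-5p, miR-128-3p and miR-22-3p, with root mean square differences of 0.154, 0.157 and 0.160 against a median of 0.502.

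**Figure D3:**
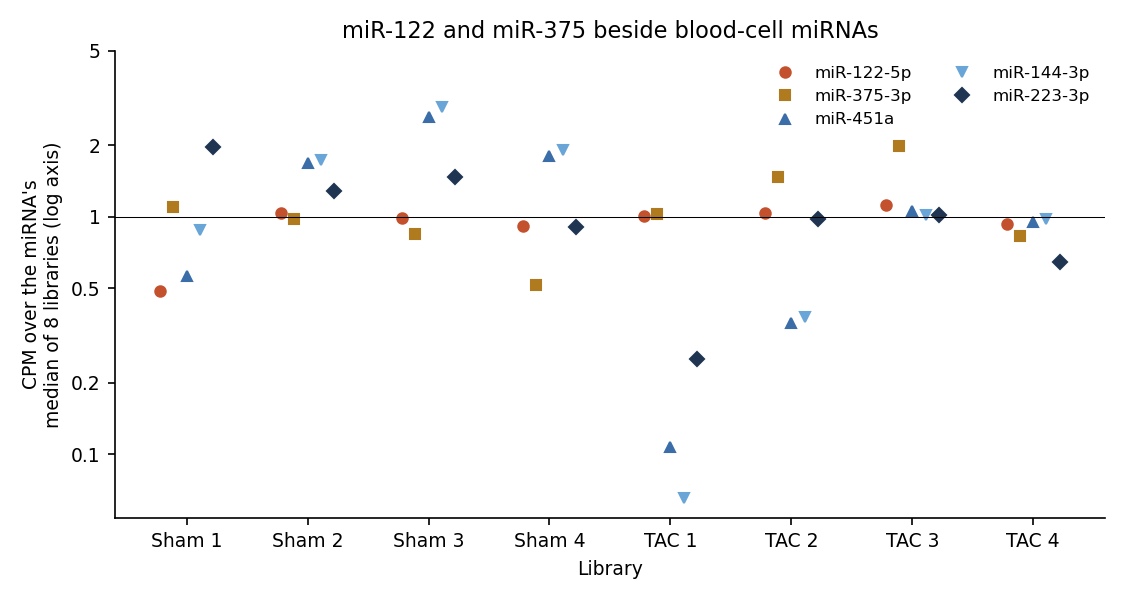
CPM of miR-122-5p in each library, divided by its median over the 8 libraries (log axis), beside miR-375-3p and the blood miRNAs miR-451a, miR-144-3p and miR-223-3p. The blood miRNAs miR-486a-5p and miR-150-5p, which varied less than these, are not drawn. miR-122-5p stays near 1 in all libraries but sham replicate 1, while miR-451a is lowest in TAC replicate 1.

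The endocrine miRNA miR-375-3p was counted 27, 28, 22 and 11 times in sham and 30, 61, 67 and 32 times in TAC. Its level was 5.83, 5.19, 4.48 and 2.75 CPM in sham and 5.45, 7.82, 10.6 and 4.43 CPM in TAC. TAC replicates 2 and 3 were above all sham libraries, and the groups overlapped through the other TAC libraries. In TAC replicate 4, where miR-216a-5p and miR-216b-5p stood high, miR-375-3p was 0.566 times the median of the other TAC libraries. Its nearest profile was that of miR-22-5p, with a difference of 0.274 against a median of 0.639.

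Whether the levels changed after TAC depended on the scaling. The reference miRNAs were those the study normalized to, and the paper describes them as unaltered, with a check by quantitative PCR. Here 1 factor for the whole TAC group was taken from their group means. That choice of this calculation leaves out their spread between libraries. Their CPM went from 39017 ± 10588 in sham to 22483 ± 1313 in TAC for miR-126a-3p and from 213 ± 36.4 to 107 ± 21.4 for miR-19b-3p (SD, n = 4 per group), and the scaling multiplies the TAC levels of every miRNA by the same factor. The reference miR-126a-3p is also one of the endothelial miRNAs given above, and whether endothelial RNA had a part in the factor was not tested. A call required a fold change over 1.7 and an adjusted p under 0.05 (edgeR quasi-likelihood test, Benjamini-Hochberg over 410 miRNAs). On that scale 4 of the 7 tested miRNAs, miR-122-5p, miR-215-5p, miR-216a-5p and miR-375-3p, were called higher in TAC and 0 lower, beside 29.8% of all tested miRNAs called higher and 0.488% lower. By adjusted p alone 6 of the 7 were higher, beside 42.7% of all. With 1 reference factor per library, miR-192-5p (edgeR adjusted p = 0.0879) and miR-194-5p (edgeR adjusted p = 0.138) were not among them, and miR-194-5p passed in 3 of the 8 fits that left out a library. The median log2 fold change of all 410 miRNAs was itself 0.59, and that of the 7 was 1.15.

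miR-375-3p rose from 4.56 ± 1.33 to 13.2 ± 5.09 reference-scaled CPM (SD over 4 libraries each), and its log2 fold change was 1.52 (SE 0.35, edgeR adjusted p = 0.00580), which is 0.92 above the median of all miRNAs. miR-122-5p rose from 7.23 ± 2.12 to 16.1 ± 1.21, with a log2 fold change of 1.15 (SE 0.28, edgeR adjusted p = 0.00721), 0.56 above that median. miR-215-5p rose from 43.9 ± 8.91 to 90.4 ± 12.3, with a log2 fold change of 1.04 (SE 0.20, edgeR adjusted p = 0.00235). The groups of these 3 miRNAs, and those of miR-192-5p and miR-194-5p, did not overlap on this scale, beside 39.8% of all miRNAs with TAC above sham. miR-216a-5p went from 19.1 ± 6.51 to 66.2 ± 55.0, with a log2 fold change of 1.79 (SE 0.48, edgeR adjusted p = 0.0123), and its groups overlapped. Without TAC replicate 4 its log2 fold change was 1.08, and without sham replicate 3 its adjusted p was 0.0570. For miR-216b-5p the log2 fold change was 1.48 (SE 0.76, edgeR adjusted p = 0.135), and 0.28 without TAC replicate 4. miR-192-5p and miR-194-5p had log2 fold changes of 0.60 (SE 0.13, edgeR adjusted p = 0.00412) and 0.45 (SE 0.15, edgeR adjusted p = 0.0312), below the fold required and 0.01 above and 0.14 below the median of all miRNAs. Without sham replicate 1, which held the highest miR-192-5p, miR-192-5p was called with a log2 fold change of 0.79.

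Under TMM, which assumes that most miRNAs did not change, edgeR called 0 of the 7, and 2 (miR-216a-5p and miR-375-3p) had an unadjusted p below 0.05. Of all miRNAs, 1.95% were called higher and 1.46% lower, and 25.9% had an unadjusted p below 0.05. The log2 fold changes of miR-375-3p and miR-122-5p were 0.99 and 0.61 on that scale, and those of miR-192-5p and miR-194-5p were 0.05 and -0.09. DESeq2 with its own size factors also called 0, beside 2.2% of all miRNAs called higher and 2.93% lower, with 2 at an unadjusted p below 0.05, beside 23.4% of all. With library totals alone, edgeR called 0 as well, beside 0.244% higher and 8.78% lower. The log2 fold changes of miR-192-5p and miR-194-5p were then -0.30 (edgeR adjusted p = 0.153) and -0.45 (edgeR adjusted p = 0.0727), the 2 with an unadjusted p below 0.05, beside 29.8% of all miRNAs. The direction of miR-192-5p and miR-194-5p thus differed between scalings.

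Without TAC replicate 4, the reference scaling again called 4 of the 7 higher, beside 34.2% of all miRNAs, and 0 lower, beside 0.248%. edgeR with TMM called 0 without that library, beside 1.98% higher and 1.49% lower, and 1 had an unadjusted p below 0.05, beside 26.0% of all. With library totals it called 0, beside 0.248% higher and 7.18% lower, and 2 had an unadjusted p below 0.05, beside 30.2% of all. With a mean above 100 counts required, 2 of the 4 miRNAs left, miR-215-5p and miR-216a-5p, were called higher, beside 36.8% of all, and 0 lower, beside 0.897%. On reference-scaled CPM 5 of the 7 had all TAC libraries above all sham libraries, beside 39.8% of all miRNAs, and 0 below, beside 0.244%. On TMM-scaled CPM 2 were above and 0 below, beside 12.4% and 6.83%. Per counts of miR-1a-3p, the leading cardiomyocyte miRNA, 2 were below, beside 34.4%. On CPM by library total 0 were above and 2, miR-192-5p and miR-194-5p, were below, beside 2.93% and 19.5% of all miRNAs.

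**Figure D4:**
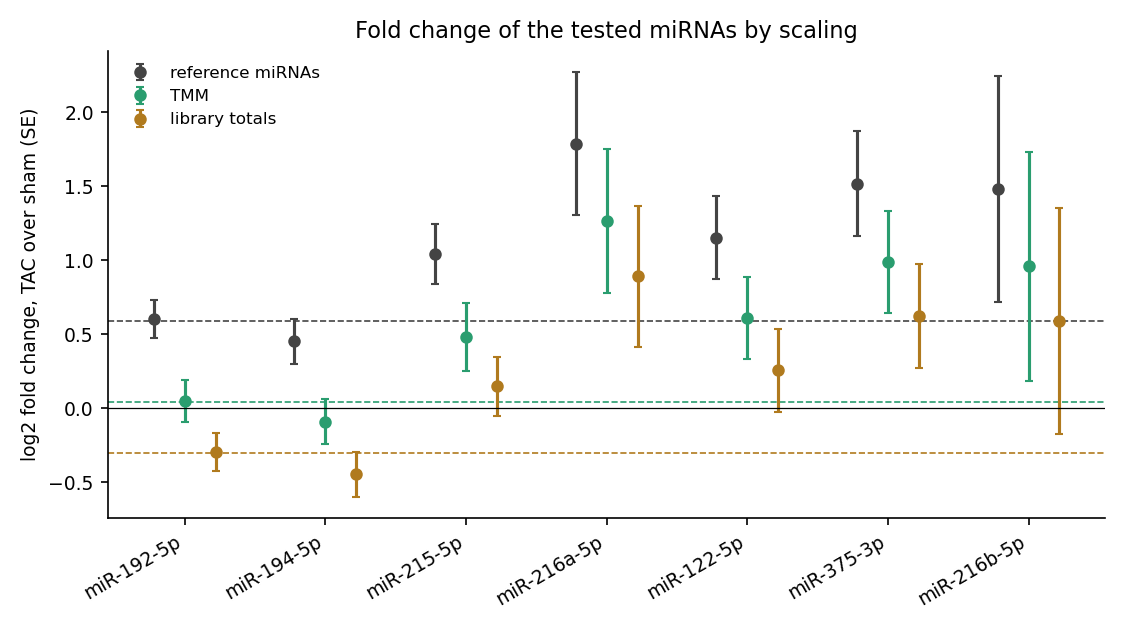
Log2 fold change (TAC over sham) of the 7 tested miRNAs with SE, from edgeR under the reference scaling, TMM and library totals. Dashed lines are the medians of all 410 tested miRNAs under each scaling, 0.59, 0.04 and -0.31.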

How the data were processed

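For each of the 8 libraries the authors deposited whole-number tag counts per mature miRNA, not normalized, per the labels. The submitters' notes name mm10 and StringTie 1.3.1. The aligner, the miRNA reference version and the treatment of tags matching several miRNAs are not given in the sources used here. Groups and replicate numbers came from the labels. The miRNAs, the marker lists and the nearest-profile rule were chosen with earlier results of these data known. Named were the 9 listed miRNAs, the other arms of their hairpins, the reference miRNAs (miR-126a-3p, miR-19b-3p), the marker lists and, for each tested miRNA, the 3 with the smallest root mean square difference of centred log2(CPM + 1) profiles.

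CPM is counts per 1000000 miRNA counts. Counts with a mean of at least 10 were tested with edgeR 4.0.16 (R 4.3.3; glmQLFit, glmQLFTest, group as the only term), with library totals multiplied in TAC by 0.537, for which the ratio of mean CPM (TAC over sham) was taken for each reference miRNA and the geometric mean of both used. DESeq2 1.42.0, TMM, library totals, other references, other filters, a replicate block and each library left out were alternatives. Other values and plots used Python 3.11.15.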

Additional observations from a re-analysis of the deposited data

Results flagged for a closer look

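In 26 groups of 4 libraries the highest or lowest value was set against the others by Dixon's ratio. At its 95% critical value 6 passed. Chance alone passes about 5% of independent groups, but these groups come from the same libraries and are not independent. Several of the flags fall in TAC replicate 4. The level of miR-216a-5p in TAC replicate 4 was 79.2 CPM, that of miR-216b-5p 9.55 CPM and the summed epithelial list 1594 CPM, each far above the other 3 TAC libraries. In the same library the summed endothelial list was lowest, at 29274 CPM. The summed blood list was highest in TAC replicate 1, at 36712 CPM, of which miR-486a-5p made up 35654 CPM, while miR-451a was lowest there, at 16.5 CPM. Among the sham libraries, miR-192-5p was highest in replicate 1, at 1524 CPM.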

How the results depend on the processing

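The number of the 7 miRNAs called higher in TAC was 4 under the reference scaling, and it was 0 under TMM, under library totals, under DESeq2 with its own size factors, and under TMM and library totals without TAC replicate 4 (the last pair added after the data had been examined). It was 2 with a mean above 100 counts required, where 4 of the 8 were left to test, and between 3 and 5 with each library left out. On the level scales, 0 had all TAC libraries above sham by library total, 2 by TMM and 5 by the reference scaling, and those below numbered 2, 0 and 0. Over all miRNAs 29.8% were called higher and 0.488% lower under the reference scaling, and the counts were 8 and 6 under TMM, 1 and 36 under library totals, and 9 and 12 under DESeq2 with its own size factors. The log2 fold change of miR-192-5p turned to -0.30 with library totals, -0.028 with DESeq2 size factors and -0.27 with library totals without TAC replicate 4. That of miR-194-5p turned to -0.092 with TMM, -0.45 with library totals, -0.17 with DESeq2 size factors, -0.066 with TMM without TAC replicate 4 and -0.41 with library totals without it. That of miR-216b-5p turned to -0.33 and -0.66 without TAC replicate 4 under TMM and library totals. The cause of these changes was not tested. Correlations of same-numbered deviations were 0.105, -0.263, 0.221 and -0.144, of mixed sign. The methods speak of pairs of sham and TAC mice, but the labels do not say that a shared number marks a pair, and whether it does is unknown; with a replicate block 4 of the 7 were called higher, and 114 miRNAs in all higher and 3 lower. The depth limits miR-217-5p, where 9 counts in all allow no comparison.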

Other observations

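miRNAs typical of other organs were also present at trace level. Of 6 brain miRNAs looked up, 5 were found, with a summed level of 23.2 to 42.8 CPM in sham and 18.5 to 22.6 CPM in TAC. The neuronal miR-124-3p was counted 3 to 11 times in sham and 5 to 8 times in TAC, fewer counts than miR-122-5p had in any library, whereas miR-9-5p was counted 79 to 148 times in sham and 71 to 110 times in TAC, more than miR-122-5p. Of 11 miRNAs of testis and embryonic stem cells, 4 were found, with a summed level of 44.4 to 52.7 CPM in sham and 23.3 to 35.3 CPM in TAC. These were miR-449a-5p, miR-34c-5p, miR-741-3p and miR-871-3p. The embryonic stem cell miRNAs of the list (miR-290a-5p, miR-291a-3p, miR-294-3p, miR-295-3p, miR-302a-3p and miR-302b-3p) were all absent.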
